A study of Mus musculus with 12 samples.

Results

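DNA methylation gains that overlapped no region of changed 5-hydroxymethylcytosine (5hmC) were picked out of the whole-genome bisulfite sequencing (WGBS) list of mouse retinas lacking the TET enzymes. A gain was an autosomal region of at least 10 CpGs whose level was higher in the Tet triple conditional knockout (tcKO) than in the Cre- control, and a member had no base in common with any region on the bisulfite APOBEC-coupled epigenetic sequencing (bACE-seq) list. There were 4724 such regions among 66652 autosomal gains of at least 10 CpGs, which is 7.09% of them. The other 61928 gains, each sharing at least 1 base with a bACE-seq region, are called overlapping gains here and serve as the comparison. The full lists held 193836 WGBS regions and 592906 bACE-seq regions, and 188451 of the WGBS regions were autosomal gains of any CpG number, 18.3% of which met no bACE-seq region.

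Both groups were whole retinas of C57 BL/6J mice at postnatal day 21. The Tet tcKO animals carried floxed Tet1, Tet2 and Tet3 with a Chx10-Cre-GFP transgene, which is active in retinal progenitor cells, is known for mosaic activity and was kept on in-crossed Cre+ breeders for that reason, and the Cre- controls, labelled WT, came from breeders without the transgene. The lists themselves do not show the Tet deletion. Each assay had 3 libraries per group, or 12 in all. By the paper, retinas of more than 1 animal were pooled and the same DNA samples went into both assays. The 12 libraries are therefore not 12 separate animals. The deposited regions hold 1 mean per group and no replicate values or read coverage, so no spread between animals, depth or test can be given, and every comparison here is a description of the authors' group means.

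TET enzymes oxidise 5-methylcytosine (5mC) to 5hmC and further to forms that can be removed from DNA. Bisulfite cannot tell 5mC from 5hmC, so WGBS gives their sum, while bACE-seq detects 5hmC alone. CpG islands at gene starts are normally kept almost free of methylation, whereas most other CpGs, including those of repeated elements, are methylated. Neurons are rich in 5hmC, above all in the bodies of expressed genes.

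The sequences of 5 members show the kinds of DNA these gains lay in, and each is read 5′ to 3′ on the plus strand of the mm10 (GRCm38) reference with every CG dinucleotide in capitals. The first pair, windows of 300 bases at the midpoints of members in introns of Cnot6 (chr11:49705154-49705453) and Epha3 (chr16:63810082-63810381), stand for CpG-poor DNA with a large rise and hold 5 and 3 CpGs. The next pair stand for CpG-dense DNA of low level: a window with 39 CpGs from a cluster of related sequences on chromosome 12 (chr12:21784172-21784471), and a window with 51 CpGs upstream of Rims2 (chr15:39197553-39197852). The last is a member of high level, in a sequence repeated in the genome and far from any bACE-seq region, with 12 CpGs in 107 bases (chr6:44731277-44731383). It was listed as ending on the C of its last CpG, and the window adds the G after it.
Cnot6 intron: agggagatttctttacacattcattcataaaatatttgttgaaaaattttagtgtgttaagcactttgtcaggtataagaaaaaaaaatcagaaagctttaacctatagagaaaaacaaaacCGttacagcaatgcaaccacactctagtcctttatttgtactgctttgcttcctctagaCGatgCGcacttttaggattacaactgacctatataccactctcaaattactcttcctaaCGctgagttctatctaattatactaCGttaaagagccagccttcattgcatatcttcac
Epha3 intron: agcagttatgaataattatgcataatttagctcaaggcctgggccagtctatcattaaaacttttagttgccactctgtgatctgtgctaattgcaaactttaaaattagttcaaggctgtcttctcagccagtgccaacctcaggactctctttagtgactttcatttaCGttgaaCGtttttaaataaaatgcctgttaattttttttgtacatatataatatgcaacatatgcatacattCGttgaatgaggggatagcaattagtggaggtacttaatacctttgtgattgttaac
Chromosome 12 cluster: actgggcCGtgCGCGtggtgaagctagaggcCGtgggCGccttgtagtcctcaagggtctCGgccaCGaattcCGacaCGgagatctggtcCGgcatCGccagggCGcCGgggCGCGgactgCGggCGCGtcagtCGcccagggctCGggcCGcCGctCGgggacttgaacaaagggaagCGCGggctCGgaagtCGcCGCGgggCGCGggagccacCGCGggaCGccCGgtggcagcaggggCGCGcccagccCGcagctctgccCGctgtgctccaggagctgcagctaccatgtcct
Upstream of Rims2: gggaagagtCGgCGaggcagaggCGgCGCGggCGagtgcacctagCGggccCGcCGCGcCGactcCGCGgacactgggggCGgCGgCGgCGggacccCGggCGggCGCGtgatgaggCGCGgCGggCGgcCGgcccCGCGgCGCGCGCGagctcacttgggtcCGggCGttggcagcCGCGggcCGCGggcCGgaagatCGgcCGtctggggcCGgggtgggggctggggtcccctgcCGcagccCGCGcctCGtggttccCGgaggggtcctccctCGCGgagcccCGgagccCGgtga
Repeated sequence on chromosome 6: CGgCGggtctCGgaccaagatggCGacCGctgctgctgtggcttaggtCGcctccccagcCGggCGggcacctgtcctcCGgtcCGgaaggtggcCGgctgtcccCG

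Members started from a lower level than the gains with a 5hmC region. The median level in the Cre- retina was 28.95% for members and 59.0% for overlapping gains. In the Tet tcKO the medians were 53.0% and 79.0%. The rise had a median of 14.05 percentage points in members, with a 10th to 90th percentile of 3.08 to 28.9 points, against 16.5 points (9.18 to 28.4) in overlapping gains. The members thus spread further toward small rises, while the large rises were of like size. A rise of at least 20 points was found in 1266 members, 26.8%, beside 32.3% of all gains of at least 10 CpGs. Members were chosen by the WGBS rise and by the absence of a bACE-seq region, so these levels and the overlap are descriptions of the selection.

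**Figure D1:**
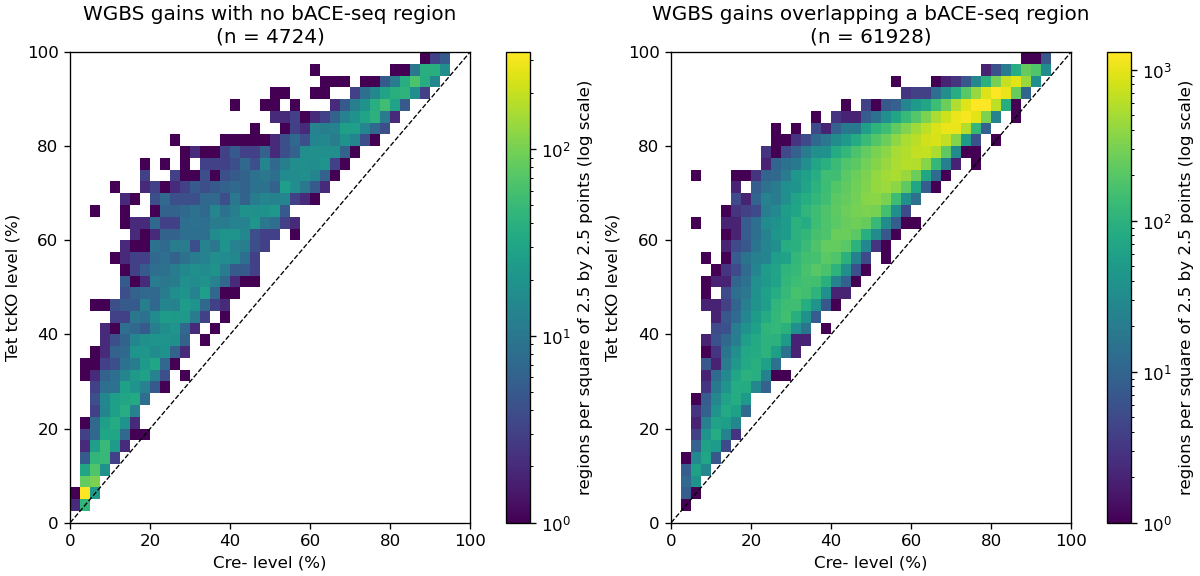
WGBS level in the Cre- retina (x axis, %) against the Tet tcKO level (y axis, %), as authors' group means, for the 4724 gains with no bACE-seq region (left) and the 61928 overlapping gains (right); colour gives the number of regions per square on a log scale and the dashed line marks equal levels. Members have 2 dense ends, at Cre- levels below 10% and above 80%, the lower one the denser, while overlapping gains are densest above their medians of 59.0% and 79.0%, with up to 1307 regions per square at Cre- levels of 72.5 to 82.5%.

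Weighted by CpGs, the mean level of members went from 31.6% to 45.7% and that of overlapping gains from 54.5% to 72.8%. Members were also shorter, with a median of 478 bp against 654.5 bp, and held a median of 12 CpGs against 14. Together the members covered 71516 CpGs and 2.69 Mb. Since length and CpG number differed, the shares by level are also given within classes of each.

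The share of gains with no bACE-seq region followed the Cre- level in a U shape. It was 70.2% (1027 of 1464 gains; 95% Wilson interval 67.8 to 72.4%) where the Cre- level was below 10%, and 28.2% at 10 to 20%. The share fell to its lowest value of 2.38% (290 of 12207) at 60 to 70%. It was 5.30% at 80 to 90% and 23.8% (79 of 332; 19.5 to 28.7%) at 90% or more. Such intervals cover counting error over regions, which are not independent of each other, and none of the variation between animals.

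**Figure D2:**
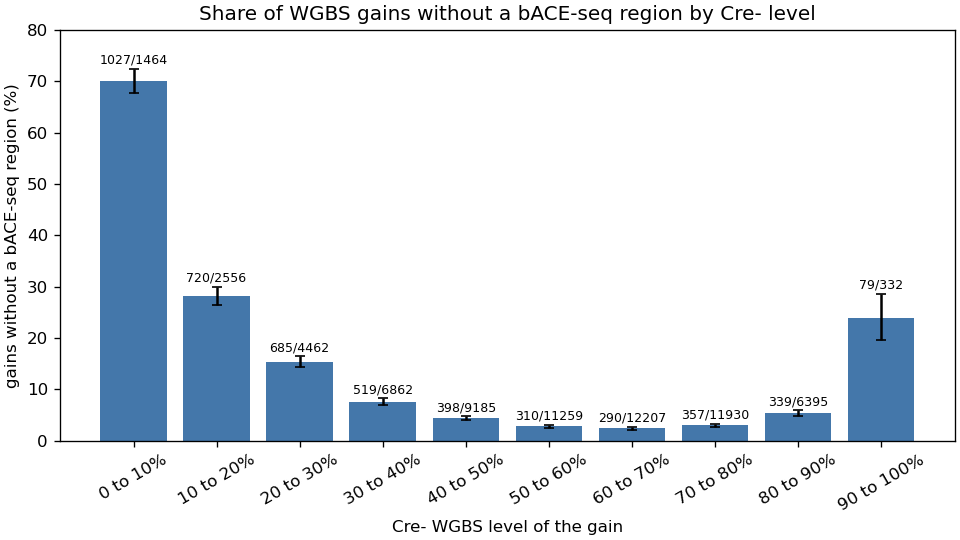
Share of autosomal WGBS gains of at least 10 CpGs that overlapped no bACE-seq region (y axis, %) by Cre- WGBS level in steps of 10 points (x axis); error bars are 95% Wilson intervals over regions and the numbers are members over gains. The share is 70.2% in the lowest class, 2.38% at 60 to 70% and 23.8% in the highest.

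The U shape was also seen among gains of like CpG number. For gains of 10 to 14 CpGs the share without a bACE-seq region was 78.1% below a Cre- level of 10%, 20.6% at 10 to 40%, 4.53% at 40 to 80% and 7.45% at 80% or more. For gains of 30 or more CpGs it was 53.8%, 3.32%, 0.670% and 3.20%, the last resting on 4 members of 125 gains. CpG number itself went with the share, which was 8.91% at 10 to 14 CpGs and 4.46% at 30 or more. Within classes of length, the share for gains under 300 bp was 84.0%, 29.9%, 10.4% and 16.5% over the same 4 levels, and for gains of 300 to under 600 bp it was 57.4%, 17.4%, 3.64% and 4.04%. For gains of 1000 bp or more it was 32.8%, 7.98%, 1.68% and 2.84%, the last from 6 members of 211 gains. The upturn at the highest level was thus small above 300 bp. By size of the rise the share was 60.8% for rises under 5 points, 5.23% at 20 to 30 points and 12.9% at 40 points or more.

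Members were cut into 4 classes by Cre- level, at 10, 40 and 80%. The lowest and highest classes stood apart in sequence. Those in between were alike in it, with a median GC content of 47.5% in each, and differed in place. The class below 10% held 1027 members and lay largely in CpG-dense promoter DNA. Its median level went from 5.07% to 8.77%, a median rise of 3.51 points, over a median length of 209 bp. The density was 10.0 CpGs per 100 bp, the GC content 69.4% and the ratio of observed to expected CpGs 0.849, all as medians. By a ratio of at least 0.6 and a GC content of at least 50%, here called CpG-dense, 71.6% of these members qualified. The midpoint of 75.8% of them lay within 2 kb of a transcription start site, and the median distance to the nearest start site was 433 bp. A start site itself lay inside 192 of them (18.7%), and those sites belonged to 204 genes, 178 of them protein-coding.

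The 437 overlapping gains below 10% were less CpG-dense than those members, with a median of 5.29 CpGs per 100 bp, and their median level went from 7.92% to 14.1%. They were 62.9% promoter and 55.1% CpG-dense. The sizes of listed 5hmC losses stand beside these levels, though they come from other libraries. In bACE-seq regions of at least 10 CpGs the loss had a 1st percentile of 3.32 and a 10th percentile of 6.57 points, and 718 members (15.2%) had a Cre- WGBS level below the latter. Smaller losses were listed in the densest DNA. Among 738 5hmC losses of at least 10 CpGs and over 10 CpGs per 100 bp, the median was 2.42 points. Their median Cre- 5hmC level was 3.39%. The 10th percentile of these losses was 1.152 points, and 0 members had a Cre- WGBS level below it. Whether the low level has a part in the lack of a bACE-seq region was not tested. At levels this low, cytosines left unconverted add to the value in both groups and in both assays, and their part was not tested.

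The class of 10 to 40% was the largest, with 1924 members, and had the widest rises. Its median level went from 23.3% to 45.0%, with a median rise of 18.8 points, and 45.6% of its members rose by at least 20 points. These members were CpG-poor and long, with a median of 2.16 CpGs per 100 bp over 616 bp. They were close in density to the 11956 overlapping gains of the same class, whose median was 2.20, and those gains went from 30.8% to 53.1%. Promoters held 21.9% of these members, gene bodies 38.1% and intergenic DNA 39.97%, against 23.99%, 45.2% and 30.8% of the overlapping gains of the class.

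The 1355 members of the class from 40 to 80% went from a median of 58.9% to 77.3% and were likewise CpG-poor, at 2.18 CpGs per 100 bp over a median of 555 bp. The 418 members at 80% or more went from 86.4% to 93.5%, with a median rise of 7.03 points over 290 bp and 4.31 CpGs per 100 bp. Repeats marked this last class: 172 of its members (41.1%) were soft-masked as repeats over 50% or more of their length, against 5.07% of the overlapping gains at that level. In 121 of them (28.9%) at least 50% of the 100-base words of the midpoint window occurred more than once in the reference, against 1.43%. Reads from such sequence can have more than 1 possible place. The authors filtered reads by mapping quality, and the part of read placement in these values was not tested.

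**Figure D3:**
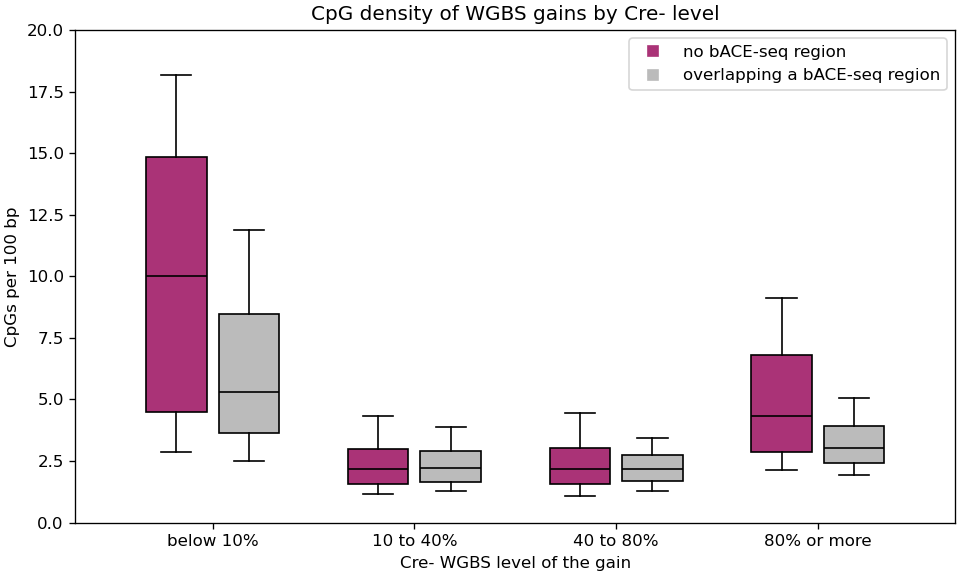
CpGs per 100 bp (y axis) by Cre- WGBS level (x axis) for gains with no bACE-seq region (purple) and overlapping gains (grey); lines are medians, boxes quartiles and whiskers the 10th and 90th percentiles over regions. Members have medians of 10.0 and 4.31 in the lowest and highest classes against 5.29 and 3.05 for overlapping gains, and near 2.2 for both in between.

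Over all classes, CpG-dense DNA held 1167 members (24.7%) and 4.22% of overlapping gains. Read from the other side, 30.8% of CpG-dense gains had no bACE-seq region against 5.66% of other gains. Above 10 CpGs per 100 bp the share was 73.8%, or 601 of 814 gains. Among gains that were soft-masked over 50% or more of their length it was 24.2%, and among those of repeated words 51.8% (243 of 469). Promoters held 28.4% of members, gene bodies 36.2% and intergenic DNA 35.4%, while overlapping gains were 12.1%, 60.2% and 27.7%. A start site lay inside 284 members (6.01%) and inside 2.87% of overlapping gains.

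Short sequence motifs of retinal transcription factors were looked up in the 300 bases at each midpoint, on both strands. TAATCC, the core bound by CRX and OTX2, which drive photoreceptor genes, was in 8.53% of members and 13.5% of overlapping gains. AGGTCA, bound by nuclear receptors, was in 15.2% and 19.7%, TGCTGA, a part of the MAF and NRL site, in 21.9% and 25.1%, and the E-box CAGCTG in 17.7% and 22.7%. The homeodomain core TAATTA was about as frequent in both, at 10.99% and 10.67%. Base composition moved with these shares: in the GC-rich members below 10%, TAATTA was in 3.60% and TAATCC in 6.33%, while in the members of 10 to 40% they were in 15.8% and 11.1%, beside 12.1% and 15.6% of overlapping gains of that class.

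Although no member touched a bACE-seq region, most had one nearby. The bACE-seq list held 592906 regions, and the share of positions at large that lie near one is not given here. Nearness is therefore not read as a trait of the members. The gap to the nearest bACE-seq region had a median of 592 bp (10th to 90th percentile 152 to 3704 bp). It was at most 100 bp for 242 members (5.12%), at most 1 kb for 3177 (67.3%) and at most 10 kb for 4509 (95.4%). A bACE-seq region lay within 1 kb on both sides of 1189 members (25.2%). Only 23 members were over 100 kb from one. The nearest region was a 5hmC loss for 4719 of the 4724 members. This follows from the list, on which nearly all regions were losses (582238 autosomal losses, with 592906 regions on all chromosomes). Where the nearest region lay within 1 kb, its 5hmC level was a median of 14.97% in Cre- and 3.47% in the Tet tcKO. The medians for all autosomal 5hmC losses were 13.9% and 3.09%.

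By distance outward from the edge of a member, bACE-seq regions covered 2.59% of flank positions at 100 bp, 22.8% at 500 bp and 29.1% at 1000 bp, and stayed near 28.6% at 5000 bp. Around overlapping gains the coverage was 67.5% at the edge and 44.1% at 5000 bp. At 2000 bp it was 46.9% around overlapping gains, 42.3% around members below 10% and 18.3% around members at 80% or more. The value of 0% at the edge of members follows from the rule. The 67.5% at the edge of overlapping gains is also shaped by it, since each was chosen for sharing at least 1 base with a bACE-seq region. Values close to the edge are thus not read as a difference between the sets. Coverage over the autosomes at large is not given here, so these values are set only against each other. The nearest overlapping gain was a median of 10.1 kb away, and within 10 kb for 49.7% of members, while the nearest other member was a median of 122 kb away, and within 10 kb for 10.99%.

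**Figure D4:**
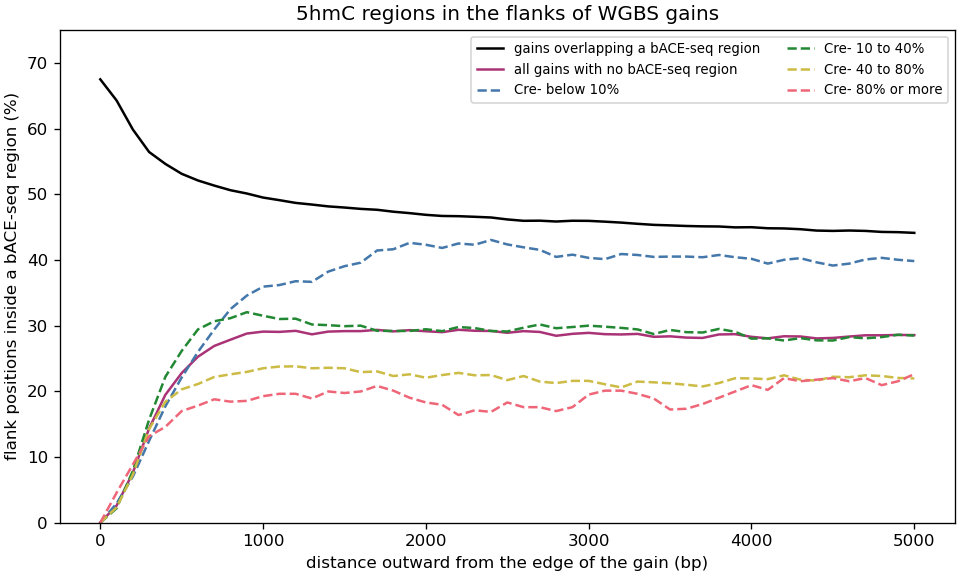
Percent of flank positions that lay inside a bACE-seq region (y axis) against the distance outward from the edge of the gain in bp (x axis), for overlapping gains (black), all members (purple) and the members of each Cre- level class (dashed). Members rise from 0% to 29.1% at 1000 bp and level off, below the 44.1% of overlapping gains at 5000 bp.

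At the edge of the rule, 15 members were within 20 bp of a bACE-seq region, with median levels of 24.6% and 34.5%. Just outside it, 859 gains overlapped one by 20 bp or less, with medians of 30.9% and 56.8%. On the side of CpG number, the 1037 members of 10 CpGs had medians of 41.1% and 66.2%, and the 1538 gains of 9 CpGs without a bACE-seq region had 45.4% and 68.8%.

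The largest rises among members were in CpG-poor DNA of genes or between them. In an intron of Cnot6, a subunit of the CCR4-NOT complex that shortens mRNA tails, a member of 16 CpGs (chr11:49704931-49705678) went from 10.5% to 71.5%, a rise of 61.0 points. The nearest bACE-seq region was 396 bp away and its 5hmC fell from 36.9% to 11.2%. A member in an exon of the noncoding gene Gm47715 (chr10:25016232-25016663) went from 7.34% to 65.8%. The midpoint window of the Cnot6 member is the first sequence printed above. A member over an exon and untranslated sequence of Wdr31 (chr4:62468614-62469587), with 11 CpGs, went from 17.7% to 74.9%.

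A member of 2953 bp in Rtn4, which encodes the axon growth inhibitor Nogo, took in a start site, coding and untranslated sequence (chr11:29718511-29721463) and went from 19.9% to 77.0% over 21 CpGs. In an intron of Epha3, an ephrin receptor of axon guidance, a member of 10 CpGs (chr16:63809909-63810555) went from 18.9% to 74.3%, with the nearest bACE-seq region 2105 bp away. The remaining member among the 6 largest rises lay between genes, 27.8 kb from 4921524L21Rik. It went from 12.9% to 69.7% over 11 CpGs and 92.2% of its length was soft-masked.

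The member with the most CpGs, 124 of them in 799 bp of 80.8% GC (chr15:39197304-39198102), lay 159 bp from Rims2, which encodes a scaffold protein of synaptic vesicle release. It went from 4.21% to 7.81%. The other 2 members with the most CpGs, with 121 and 114, were both on chromosome 12.

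The members with the largest area statistic, the measure by which the authors' caller sums the test values of a region's CpGs and which served only to rank them here, were mostly on chromosome 12 as well, with 5 of 6 between 19 and 24 Mb. One in the gene model Gm49692 (chr12:20232570-20234558) went from 70.8% to 84.6% over 93 CpGs. The others began low: 14.1% to 32.3% over 108 CpGs (chr12:21783744-21784901), 23.7% to 33.6% over 121 CpGs (chr12:19288043-19289356), 8.08% to 23.4% over 93 CpGs (chr12:22905543-22906517), and 9.01% to 23.1% over 103 CpGs at the start site of 2410018L13Rik (chr12:23009594-23010561). The remaining one (chr6:31799563-31803798), in an intron of Gm13849, went from 53.6% to 90.5%, was 99.9% soft-masked, and was listed with 35 CpGs where the reference has 92.

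Most members of this stretch were alike in sequence, which was looked at after their values were seen. Between 18 and 24 Mb of chromosome 12 lay 40 members among 71 gains, a share of 56.3%, and 36 of them were CpG-dense with a median of 47.5 CpGs. The Cre- level of those 36 ran from 4.22% to 70.8% with a median of 18.6%, the Tet tcKO level from 6.81% to 84.6% with a median of 33.6%, and the rise from 2.59 to 21.1 points. For 33 of the 36 the midpoint window was at least 80% identical to sequence at another of them at least 5 kb away, with a median best identity of 97.5%. Among 46 CpG-dense members elsewhere on the chromosome this held for 3, and the median best identity was 58.8%. Most of the 36 were alike without being exact copies, since 9 had at least 50% of their 100-base words repeated.

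The 5 Mb bin with the most members per CpG was the end of chromosome 13 (chr13:120000001-125000000), where all 8 gains were members, at 26.1 members per 10000 CpGs against a median of 2.17 over 501 bins. The chromosome ends soon after the start of this bin, so the rate rests on 3071 CpGs. Of these 8, 7 had repeated words, and all lay 10.9 to 118 kb from a bACE-seq region. The 6 members beside Gm36079 had Cre- levels from 4.05% to 7.35% and Tet tcKO levels from 9.87% to 27.6%. The other 2, soft-masked over their whole length, went from 71.3% to 85.9% and from 76.4% to 88.0%. The part of read placement in the values of this bin was not tested either.

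The 3 members farthest from a bACE-seq region also lay in repeated or related sequence. One of 12 CpGs (chr6:44731277-44731382) was 358 kb away and went from 85.7% to 91.9%, and the median 100-base word of its window occurred 45 times in the reference. One of 10 CpGs (chr7:86031976-86032170), likewise 358 kb away, went from 89.5% to 94.2%, with 73 occurrences. The third was in the chromosome 12 set (chr12:22744966-22745804), 264 kb away, and went from 17.3% to 27.2% over 90 CpGs. Along the autosomes the share of gains without a bACE-seq region ran from 5.58% on chromosome 5 to 8.91% on chromosome 3, and 8 of the 501 bins held no member.

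Genes with known roles in the retina were next, counted where a member lay in the gene or within 5 kb of it. Of 30233 autosomal genes 3549 (11.7%) had a member, and 16497 (54.6%) had an overlapping gain. Of 91 autosomal genes on 12 lists of retinal cell types, DNA methylation machinery and germline genes, 17 (18.7%) had a member and 70 (76.9%) an overlapping gain. Those 17 genes accounted for 22 members, none of them in repeated words. Longer genes hold more regions, and the listed genes had a median length of 25.7 kb against 13.3 kb for all. The 11.7% is therefore only a reference for the lists, and no list is read as differing from it.

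Photoreceptor specification genes had a member in 4 of 8. In Mef2d, a transcription factor that acts with CRX in photoreceptors, an intron member of 11 CpGs (chr3:88143853-88144920), 1.28 kb from a start site, went from 5.58% to 45.0%. That rise of 39.4 points was the largest among the members at listed genes. Otx2, the homeobox factor that sets photoreceptor and bipolar identity, had members going from 4.20% to 7.87% and from 10.1% to 20.1%. Neurod1, a basic helix-loop-helix factor of photoreceptors, had an exon member going from 4.88% to 11.1%, and Casz1, a zinc finger factor, an intron member going from 20.8% to 36.7%.

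Rod genes had a member within 5 kb in 2 of 15 (13.3%), near the 11.7% of all autosomal genes. In 0 of them was there a member without the flank, while all 15 had an overlapping gain. A member lay 67 bp from the start of Gnb1, a subunit of the rod G protein transducin (5.26% to 9.24%). Another lay 283 bp from the start of Rom1, an outer segment disc protein (4.57% to 6.88%). The start nearest to this second member was that of the neighbouring Eml3. Cone genes had a member in 0 of 9, with 8 having an overlapping gain. Both members at rod list genes were thus low-level sites outside those genes and beside gene starts. The rod list also held Rcvrn and Prph2, which the paper treats as transcripts of mature photoreceptors, so the rod and cone counts are not compared.

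Genes of inner retinal neurons and Müller glia held most of the remainder. Pax6, the eye field factor that amacrine cells keep, had 5 members, the most of any listed gene. From the upstream side onward they went from 10.4% to 17.4%, 23.9% to 38.6%, 6.29% to 11.7%, 5.81% to 15.4% and 48.8% to 67.4%. The first and the last of them lay outside the gene and the others inside it, and each had a bACE-seq region 138 to 912 bp away. Slc6a9, the glycine transporter of amacrine cells, had a member going from 6.22% to 17.4%.

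Prkca, the rod bipolar kinase, had an intron member going from 27.7% to 49.0%, and Isl1, a LIM homeobox factor, one near its start going from 2.94% to 4.499%. Pou4f2, which specifies ganglion cells, had a member 2.05 kb from its start going from 11.98% to 27.5%, and Nefl, a neurofilament subunit, one going from 78.0% to 87.3%. Calb1, the calbindin of horizontal cells, had an intron member going from 53.1% to 76.7%. Sox2, a factor of progenitors and Müller glia, had the one member over the start site of a listed gene, with 16 CpGs going from 4.46% to 6.05%. Sox9, of the same glia, had one in an exon going from 4.09% to 7.01%.

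Microglial and endothelial genes had a member in 0 of 4 each and an overlapping gain in 3 and 4. Of all autosomal genes 11.7% had a member, so counts from lists this short are not read as differences. Of 9 genes of the TET and methylation machinery 1 had a member: Dnmt3a, a de novo methyltransferase, with 32 CpGs going from 6.47% to 9.27%. Of 9 germline genes 1, Tdrd1, had a member going from 11.04% to 21.4%, and that member was nearest to the start of Ccdc186. Whole retina mixes all these cell types, so a level may reflect the share of cells or alleles with the mark, and the gene lists name no source of it. The paper reports far fewer rods, more cones and altered shares of other cell types in the Tet tcKO retina. The cell mix thus differed between the groups, and a change within cells cannot be told apart from a change in the mix.

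**Figure D5:**
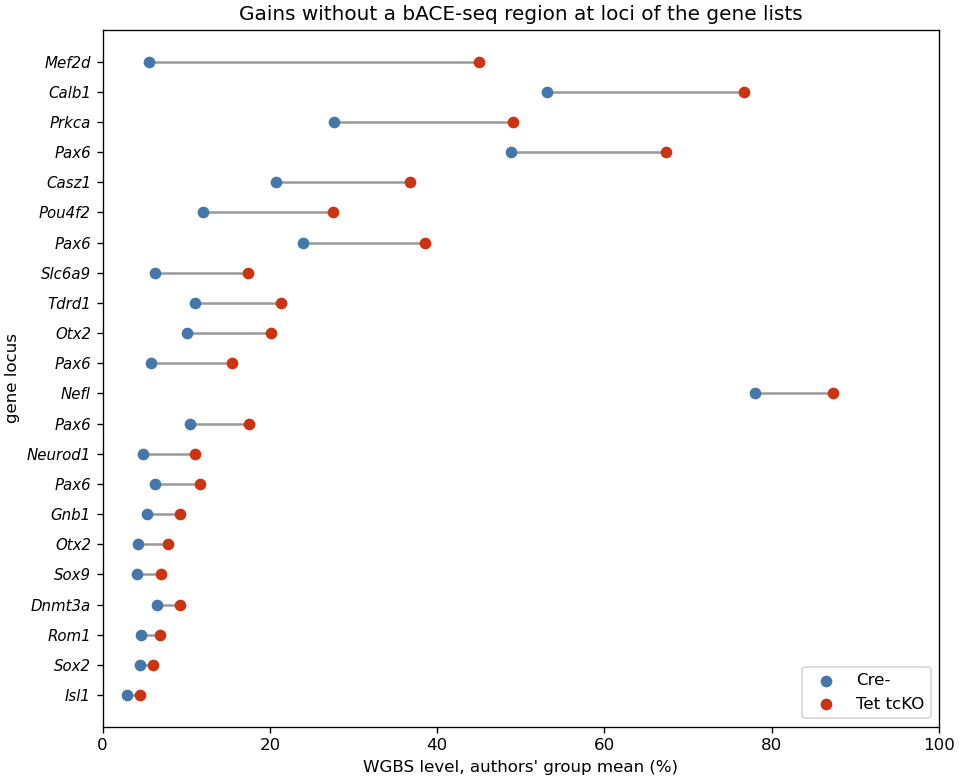
WGBS level in % (x axis, authors' group mean, no replicate values) in Cre- (blue) and Tet tcKO (red) for the 22 members at loci of the gene lists, ordered by the rise (y axis, gene of the locus). Mef2d has the largest rise, 5.58% to 45.0%, and Isl1 the smallest, 2.94% to 4.499%; most of the others begin below 12%.

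Hox genes, which pattern the body axis, had a member within 5 kb for 10 of 39 (25.6%) and an overlapping gain for 0. Of all protein-coding autosomal genes, 13.2% had a member and 56.3% an overlapping gain. Without the flank, 5 of the 39 Hox genes and 2112 of 20807 protein-coding genes had a member. The Hox counts came from 6 distinct regions, at Hoxa3, Hoxa4, Hoxa13, the Hoxb6 to Hoxb8 stretch, Hoxd3 and Hoxd13. All were low, from 3.12% to 7.94% in Cre- and from 5.19% to 10.9% in the Tet tcKO, with rises of 1.74 to 3.51 points. At Cre- levels below 10%, 70.2% of all gains were members, so the lack of an overlapping gain among 6 regions is not read further. Of the 6, 5 were CpG-dense, all lay within 1 kb of a start site, and the nearest bACE-seq region was 3662 to 39921 bp away.

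Clustered protocadherins, which give neurons their surface identity by promoter choice, had a member for 32 of 57 genes (56.1%) and an overlapping gain for 35 (61.4%). The shares of all protein-coding autosomal genes were 13.2% and 56.3%, at a median length of 17.6 kb against 90.3 kb for these genes. Their gene models overlap each other, so these counts came from 4 distinct members among 21 gains. The 4 went from 23.0 to 40.5% in Cre- to 33.4 to 68.3% in the Tet tcKO, a higher range than at the Hox genes.

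Counts for other families stand beside 13.2% of all protein-coding autosomal genes with a member and 56.3% with an overlapping gain, at a median gene length of 17.6 kb. Among Kcn potassium channel genes, of median length 32.2 kb, 21 of 92 (22.8%) had a member and 66 an overlapping gain. Among Slc transporters, of 30.1 kb, 60 of 372 (16.1%) had a member and 254 an overlapping gain, and among Zfp zinc finger genes, of 17.4 kb, 39 of 388 (10.1%) and 156. Keratin genes, of 2.35 kb, had a member in 8 of 112 (7.14%), or 2 without the flank, and an overlapping gain in 40. Cytochrome P450 genes had a member in 3 of 102 and an overlapping gain in 21, serpins in 1 and 9 of 60, and beta-defensins in 1 and 9 of 42. Olfactory receptor genes had a member in 1 of 1128 and an overlapping gain in 21, and vomeronasal receptor genes in 2 and 1 of 329. The 35 members at Kcn genes had a median level of 50.6% in Cre- and 69.3% in the Tet tcKO, and the 48 at Zfp genes 10.1% and 23.3%.

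The genes with the most members were mostly long. Gm20388 had 21 and Fgfr2, a fibroblast growth factor receptor, 12, in annotated models of 4.43 and 2.96 Mb that run across many other genes. Auts2, a neurodevelopmental regulator, and Filip1, a filamin-binding protein, had 7 each. Ctnna3, a catenin, Slit3, an axon guidance ligand, and Gm36079 had 6 each, and Dlg2, a synaptic scaffold, was the first of several genes with 5. Filip1 spans 198 kb and had 6 overlapping gains, and Gm36079 spans 0.573 kb and had 0, while the other 6 had 13 to 463.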

How the data were processed

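WGBS and bACE-seq regions of differing level between Cre- and Tet tcKO retinas were used as deposited. The authors trimmed reads with TrimGalore 0.4.4, aligned them to mm10 with Bismark 0.18.2, filtered them with SAMtools 1.15.1, removed duplicates with Picard, counted CpGs with MethylDackel 0.6.1 and called regions with DSS 2.48.0, which smooths levels over neighbouring CpGs. Group levels are deposited as a fraction and are printed in percent. Each deposited region also carries the authors' own comparison, a difference and an area statistic (a score). The difference served only to check the sign and the area statistic only ranked regions. Other per-sample columns numbered 0, and no read coverage was at hand, so the depth behind each value is unknown.

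Overlaps, distances, sequence composition and motifs were computed with Python 3.11.15, numpy 2.4.6, pandas 2.3.3, numba 0.67.0 and edlib, and figures drawn with matplotlib 3.10.9, on GRCm38.p6 with basic GENCODE M21 annotation (32106 protein-coding and long noncoding genes). Promoter meant a midpoint within 2 kb of a start site, gene body else within a gene, intergenic the rest. Windows of 300 bp at the midpoint were searched for motifs and for 100-base words with more than 1 occurrence. Bins of 5 Mb needed at least 1000 CpGs. Intervals are 95% Wilson intervals. The code for intervals and copies was tested on simulated data.

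Members and gene lists were chosen with earlier results of these data known. Regions named were the 6 with the largest area statistic, the 6 with the largest rise, the 3 with the most CpGs, the 3 farthest from a bACE-seq region, the bin with the most members per CpG, members at listed genes and the 8 genes with the most members. The chromosome 12 set, the Hox, Pcdh, Kcn and Zfp levels, the sizes of 5hmC losses and the classes of length were looked at after the values were seen. Alternatives were other CpG minimums, overlap rules, promoter widths, gene flanks and CpG-dense thresholds.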

Additional observations from a re-analysis of the deposited data

How the results depend on the processing

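The number of members depended on the rule. It was 684 (4.45% of gains) at a minimum of 20 CpGs and 23368 (14.96%) at 5, 1547 (2.32%) when no bACE-seq region could lie within 1 kb, 15574 (23.4%) when a gain needed only to be less than 50% covered, and 1266 (5.89%) at a rise of at least 20 points. The median rise was 12.6 points weighted by CpGs and 7.44 at 20 CpGs. Without members of repeated sequence, an alternative chosen after seeing the data, it was 14.4. The median Cre- level was 23.6% weighted by CpGs, 10.9% at 20 CpGs and 36.5% with none within 1 kb. With a promoter of 1 kb the promoter and gene body shares were 21.6% and 41.8%. With 5 kb they were 35.4% and 31.4%, and the intergenic share 33.2%. A stricter ratio of 0.75 and GC of 55% left 16.1% CpG-dense, and without flank 10 listed genes had a member. The cause of these shifts was not tested beyond the rule itself. Of 50 alternative values 23 moved by less than their interval or by less than 1.5 times for counts and 27 by more. No paired analysis was possible because the regions carry 1 mean per group, and for the same reason no replicate could be left out. Depth per region is unknown, and the absence of a bACE-seq region means that no change was listed, not that 5hmC was unchanged.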
